A study of Homo sapiens with 42 samples.

Results

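The comparison is between HL-60 cells that carry EZH2 shRNA 1 and HL-60 cells that carry a non-targeting shRNA, both grown without ATRA. HL-60 is a human line of acute myeloid leukemia with amplified MYC. The members were chosen by their treatment labels, 3 arrays for the EZH2 hairpin and 3 for the control hairpin, which makes 6 of the 42 Affymetrix Human Gene 1.0 ST arrays of the series and 6 of the 24 arrays of its knockdown experiment. Both groups share the lentiviral transduction, selection in 1.5 µM puromycin for at least 3 days and a period of recovery and expansion, so that they differ by label only in the hairpin sequence. Untransduced cells, cells with EZH2 shRNA 2 and the same hairpins with 0.1 µM ATRA (3 arrays each) are used below where they bear on this comparison. The triplicates are described as biological, but the sources used here do not say whether each came from its own transduction. The limma p-values measure the spread between arrays of the same group, pooled over all 42 arrays of the series. The question posed by the comparison was what loss of EZH2 alone does to the transcriptome of these cells, before any differentiation signal.

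EZH2 is the catalytic subunit of Polycomb repressive complex 2 (PRC2), which methylates lysine 27 of histone H3 and so keeps developmental and lineage genes silent. The complex needs EED and SUZ12 for activity, EZH1 is its alternative catalytic subunit, and accessory proteins such as JARID2 and MTF2 take it to chromatin. In blood formation PRC2 holds back genes of lineages that a progenitor has not entered. A short hairpin RNA lowers the mRNA and leaves the gene intact.

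The array medians were examined first. The median log2 value over all probe sets was 5.56, 5.56 and 5.36 in non-targeting replicates 1, 2 and 3, and 5.47, 5.35 and 5.36 in the EZH2 shRNA 1 arrays. Non-targeting replicates 1 and 2 and shRNA 1 replicate 1 were thus high and the other 3 arrays alike. Over the brightest 40% of genes the order was turned, with medians of 8.53, 8.50 and 8.81 for the control and 8.65, 8.78 and 8.80 for shRNA 1. Neither median differed between the groups in an exact two-sided permutation test (p = 0.2 and p = 0.4, where 3 arrays against 3 cannot go below 0.1). The control therefore holds 2 arrays that stand apart from its replicate 3, and the main results below are also given without the 6 high-median arrays of the knockdown experiment (2 of the control and 1 of EZH2 shRNA 1 among them), a setting that leaves 1 control array whose spread is assumed to be that of the other groups.

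EZH2 itself was lower in every shRNA 1 array. Its log2 level was 9.13, 9.20 and 9.49 with EZH2 shRNA 1 and 10.26, 10.45 and 10.39 with the non-targeting shRNA, and the groups did not overlap. The log2 fold change was -1.09 (standard error 0.15, adjusted p = 0.000115, limma), and it lay between -1.20 and -1.02 whichever array was left out. Without the 6 high-median arrays it was -1.04 and no longer passed (adjusted p = 0.0537). Against untransduced cells, whose EZH2 level varied more between arrays, the change was -0.75 (adjusted p = 0.0121). Between the hairpins EZH2 differed by -0.01 (standard error 0.15). The rest of PRC2 was not called. Of 14 measured genes of the complex and its accessory proteins, 12 were bright enough to be called, and EZH2 was the only called member. SUZ12 changed by 0.04 and EED by -0.15. EZH1 was 7.60, 7.94 and 7.45 with shRNA 1 and 8.09, 8.23 and 7.93 with the control, groups that overlapped at 1 array (-0.42, adjusted p = 0.0933). Of 14 callable PRC1 genes, whose products bind the H3K27 mark or ubiquitylate H2A, RYBP was called higher (0.50, adjusted p = 0.00407). RYBP was not called against untransduced cells, from which it differed by 0.16 (adjusted p = 0.597, limma). Against the non-targeting shRNA, RYBP changed by 0.18 with EZH2 shRNA 2, and by 0.17 with EZH2 shRNA 1 when both groups had ATRA. Neither change was called. None of 16 genes for H3K27 demethylases and H3K9 methylation was called.

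**Figure D1:**
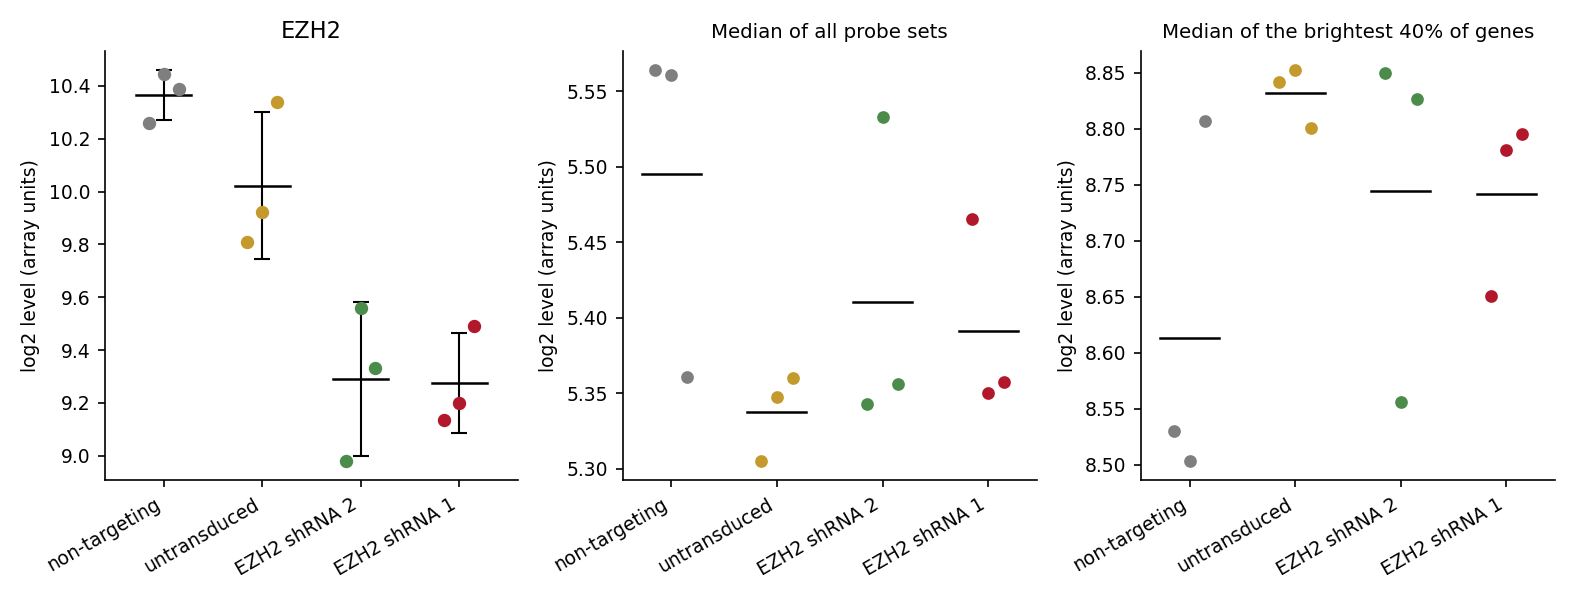
Log2 level of EZH2 (left), median log2 value over all probe sets (middle) and over the brightest 40% of genes (right) in the 4 groups without ATRA. Each point is 1 array, horizontal bars are means, and error bars in the left panel show ± SD (n = 3). EZH2 lies between 9.13 and 9.49 in the shRNA 1 arrays and at 10.26 or more in the control, and non-targeting replicates 1 and 2 lie apart from replicate 3 in both medians.

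A gene was called when its adjusted p was at most 0.05, its fold at least 1.3 and its mean within the top 40% of the 18417 genes tested, the thresholds of the study's methods. Among the 7367 genes that could be called, 381 were higher with EZH2 shRNA 1 (5.17%) and 66 were lower (0.896%). The median log2 change was 0.68 among the genes called higher and -0.55 among those called lower, against a median of 0.13 over all callable genes and 0.01 over all genes tested. A change of at least 2-fold was found for 68 of the called higher and 2 of the called lower genes. The arrays of both groups did not overlap for 364 of the 447 called genes and for 1238 of the 7367 callable genes (16.8%).

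The size of this list rested on the control arrays. It was 88 genes without non-targeting replicate 1, 91 without replicate 2 and 1898 without replicate 3, the control array of ordinary median. Without shRNA 1 replicate 1 it was 176 and without its replicate 2 it was 214. A core of 62 genes (0.842%), 55 higher and 7 lower, was called whichever array was left out. All 62 were also called after quantile normalization, after centring each array on its median and with the array median as a covariate. These fits take the spread from all the arrays of the series. A fit of only the 6 arrays compared called 0 genes, so the 62, EZH2 among them, all lost the call there. Without the 6 high-median arrays 14 genes were called, 11 of them from the 62. The split between higher and lower calls moved as well, from 85.2% higher to 77.6% with quantile normalization, 95% with centring and 54.6% with the array median as a covariate.

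**Figure D2:**
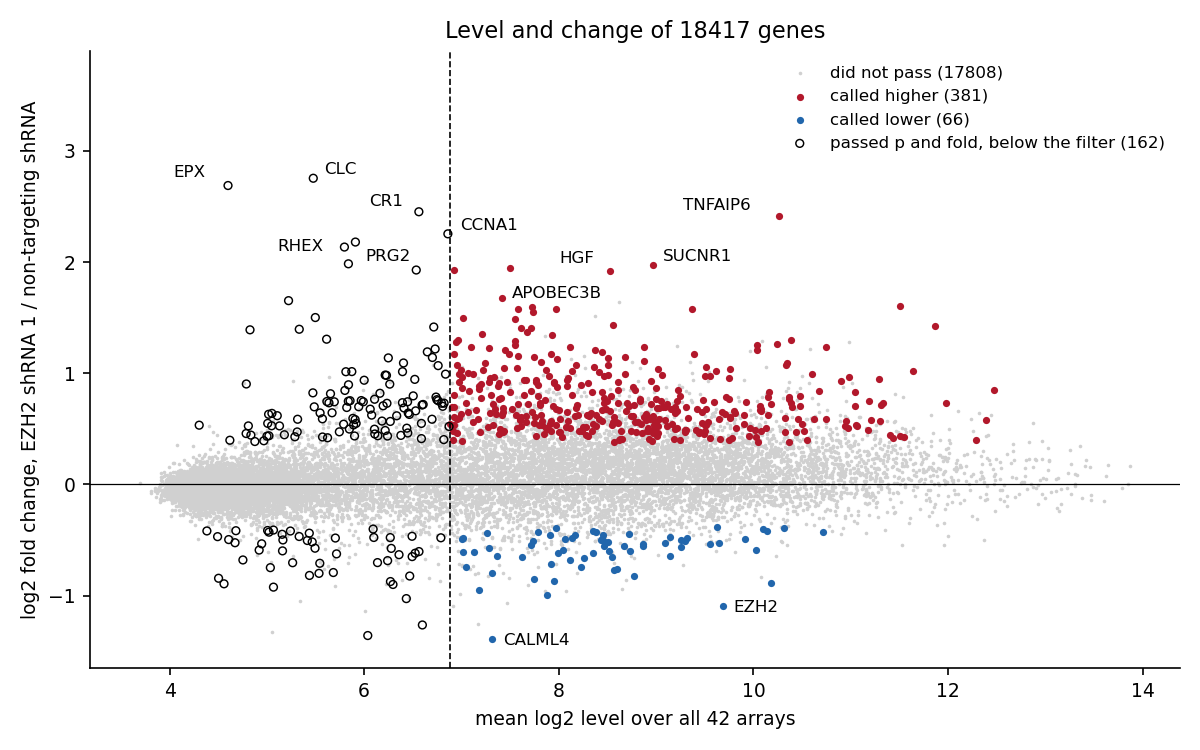
Log2 fold change of EZH2 shRNA 1 over non-targeting shRNA (vertical axis) against the mean log2 level over all 42 arrays (horizontal axis) for 18417 genes. Red and blue points are called genes, open circles are genes that passed the p and fold thresholds but lie below the expression filter (dashed line). The largest changes, CLC and EPX at 2.75 and 2.69, lie below the filter.

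The largest changes lay below the expression filter. When the p and fold thresholds were kept and the filter was dropped, 494 genes passed as higher (2.68% of 18417), and 162 of the 609 genes that passed in either direction were below the filter. A change of at least 4-fold was found for 6 of these dim genes, CLC, EPX, CR1, CCNA1, PRG2 and RHEX, and for 1 gene above the filter, TNFAIP6. Of the 162, 113 were higher and 49 lower, and 34 passed whichever array was left out. Genes below the filter are named here because of their values, except where a list holds them.

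Genes for proteins of the eosinophil granule and cytoplasm were among these. CLC encodes the protein of Charcot-Leyden crystals, abundant in eosinophils and basophils. Its log2 level was 7.71, 8.38 and 6.54 with EZH2 shRNA 1 and 4.77, 5.08 and 4.52 with the non-targeting shRNA, with a wide gap between the groups. The log2 fold change was 2.75 (standard error 0.43, adjusted p = 0.000278), which is 6.74-fold. EPX encodes eosinophil peroxidase. Its level was 7.03, 6.96 and 6.22 with shRNA 1 and 4.19, 3.86 and 4.10 with the control (2.69, standard error 0.27, adjusted p = 5.21e-07). The 3 control arrays of EPX lay below the median of all values on the arrays and the 3 shRNA 1 arrays above it. PRG2 encodes the major basic protein of the granule core. It stood at 8.59, 8.22 and 7.24 with shRNA 1 and at 6.06, 5.94 and 5.51 with the control (2.18, standard error 0.23, adjusted p = 8.44e-07). In all 3 genes shRNA 1 replicate 3 was the lowest of its group and still above every control array. Each of the 3 passed whichever array was left out. Without the 6 high-median arrays EPX and PRG2 passed (2.49 and 2.22, adjusted p = 0.00479 and 0.000988) and CLC did not (2.94, adjusted p = 0.0883).

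These 3 are the only members that passed of a list of 11 measured markers of eosinophils, basophils and mast cells, none of which reached the expression filter. The other 8 stayed low in both groups. PRG3, a homolog of PRG2, was 4.48, 4.45 and 4.48 with shRNA 1 and 4.27, 4.60 and 4.43 with the control. IL5RA, the interleukin 5 receptor, was 4.16, 4.22 and 4.32 with shRNA 1. SIGLEC8, HDC, CPA3, FCER1A, ENPP3 and GATA1 differed by between -0.18 and 0.07 from the control, and none passed. The mean level of the 11 markers was 5.11 to 5.39 in the shRNA 1 arrays, 4.53 to 4.73 in the control and 4.46 to 4.50 in untransduced cells. In RNA from whole cultures, a few cells with a high level and many cells with a low level of these mRNAs cannot be told apart.

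Other dim genes with a large rise, all but GATA2 chosen after their values were seen, have varied functions. GATA2, a transcription factor of blood progenitors that the study names, was 7.96, 8.51 and 7.74 with shRNA 1 and 7.07, 7.35 and 6.52 with the control (1.09, standard error 0.19, adjusted p = 0.00131). IL1RL1, the receptor for interleukin 33, was 6.28, 6.71 and 5.00 against 4.71, 4.62 and 4.50 (1.39, adjusted p = 0.000408). RHEX, a transducer of erythropoietin signals in erythroid precursors, was 8.04, 8.61 and 8.23 against 6.27, 5.90 and 6.30 (2.13, standard error 0.25, adjusted p = 3.41e-06). None of these groups overlapped, although shRNA 1 replicate 3 of IL1RL1 lay close to the control. CR1, complement receptor 1, was 8.81, 8.71 and 7.15 against 5.84, 5.91 and 5.56 (2.45, adjusted p = 3.93e-05). CCNA1, the cyclin A1 of germ cells and myeloid leukemia, was 8.66, 8.88 and 8.75 against 6.11, 6.39 and 7.04 (2.25, standard error 0.39, adjusted p = 0.000884). HPGD, which inactivates prostaglandins, was 6.75, 6.98 and 5.78 against 4.97, 4.79 and 4.79 (1.65, adjusted p = 6.89e-06). Replicate 3 was again the lowest shRNA 1 array for CR1 and HPGD, while CCNA1 was even across its 3 arrays. All 6 genes passed whichever array was left out. Without the 6 high-median arrays GATA2, RHEX, CR1 and HPGD passed, and IL1RL1 (1.36, adjusted p = 0.145) and CCNA1 (1.78, adjusted p = 0.32) did not.

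Promoter sequence is shown for 3 of these genes whose 250 bases upstream of a RefSeq start hold a GATA motif, the site of the family to which GATA2 belongs. The bases are from GRCh38.p14, and capitals mark the letters AGATAA, the letters AGATAG, the letters TGATAA or the letters TGATAG on either strand, which 22.3% of 35116 promoters of that length hold. CLC is shown from chr19:39738030-39738279 on the minus strand, IL1RL1 from the upstream of its RefSeq starts at chr2:102311313-102311562 on the plus strand, and RHEX from chr1:206083345-206083594 on the plus strand.
CLC: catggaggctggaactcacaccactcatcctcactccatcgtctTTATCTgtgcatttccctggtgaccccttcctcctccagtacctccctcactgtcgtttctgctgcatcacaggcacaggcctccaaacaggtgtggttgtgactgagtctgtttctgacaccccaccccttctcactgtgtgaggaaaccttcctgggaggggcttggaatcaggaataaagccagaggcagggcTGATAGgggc
IL1RL1: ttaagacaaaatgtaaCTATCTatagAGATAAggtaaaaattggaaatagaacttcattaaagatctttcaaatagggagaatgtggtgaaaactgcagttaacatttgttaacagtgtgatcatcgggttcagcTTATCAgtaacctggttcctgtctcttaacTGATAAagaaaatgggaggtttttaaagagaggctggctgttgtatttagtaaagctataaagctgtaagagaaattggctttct
RHEX: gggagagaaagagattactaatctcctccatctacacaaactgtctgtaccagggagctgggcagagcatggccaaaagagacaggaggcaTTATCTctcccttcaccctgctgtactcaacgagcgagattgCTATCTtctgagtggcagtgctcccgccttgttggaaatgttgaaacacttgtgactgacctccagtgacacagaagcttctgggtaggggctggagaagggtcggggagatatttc
CLC and RHEX have 2 matches each and IL1RL1 has 4, a number of 3 or more being held by 0.94% of promoters. The other IL1RL1 start and the promoters of GATA2, CR1, HPGD and CCNA1 have no match in this window. A match is a description of the letters, and binding was not measured.

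EZH2 shRNA 1 was next set beside the other groups without ATRA, comparisons that share the shRNA 1 arrays and are therefore not independent of it. Against untransduced cells 31 genes were called higher (0.421%) and 29 lower (0.394%), and against EZH2 shRNA 2 the counts were 28 (0.38%) and 9 (0.122%). Without the filter 61 (0.331%) and 59 (0.32%) of 18417 genes passed as higher. CLC was 4.47, 4.66 and 4.14 in untransduced cells and 5.03, 4.64 and 4.46 with shRNA 2, so all 6 lay below every shRNA 1 array. EPX, PRG2, RHEX, CR1 and CCNA1 likewise had each of those 6 arrays below the lowest shRNA 1 array. In log2 units EPX was higher by 2.84 than in untransduced cells and by 2.86 than with shRNA 2, PRG2 by 2.87 and 2.37, and RHEX by 3.00 and 2.28. EZH2 mRNA differed by -0.01 between the hairpins and by -0.75 from untransduced cells. Loss of EZH2 and any other effect of the hairpin sequence cannot be told apart within the shRNA 1 arrays.

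In all, 23 genes passed against the non-targeting shRNA, untransduced cells and EZH2 shRNA 2, with 19 higher and 4 lower. Of these, 6 are in the top 40% by level and 17 below it. The 19 are CLC, EPX, PRG2, GATA2, IL1RL1, RHEX, CR1, CCNA1, HPGD, LGALS12, APOBEC3B, MT1F, EDIL3, CLEC4E, BHLHE41, PLCL2, ARHGAP5, RAB7B and ADGRE4P. The 4 lower genes are ATP8B2, HBS1L, MAP4K1 and GUSBP5. LGALS12, a galectin of myeloid and fat cells, was 7.79, 7.79 and 8.01 with shRNA 1, 6.58, 6.29 and 6.50 with the control and 6.91, 6.95 and 6.76 in untransduced cells. APOBEC3B, a cytidine deaminase, was 7.73, 7.52 and 8.36, 5.82, 6.15 and 6.61, and 7.06, 6.45 and 6.37 in the same groups. Its probes may also read near-identical APOBEC3 genes. ATP8B2, a phospholipid flippase gene, was 7.51, 8.18 and 7.97 with shRNA 1 against 8.57, 8.59 and 8.78 with the control (-0.76, adjusted p = 0.000958), and it changed by -1.06 against untransduced cells. Of the 23, 16 passed whichever array of this comparison was left out, 7 passed without the 6 high-median arrays, and 22 passed under each of quantile normalization, centring and the array median as a covariate. The 23 were selected by these tests, so the counts describe them and support nothing further.

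**Figure D3:**
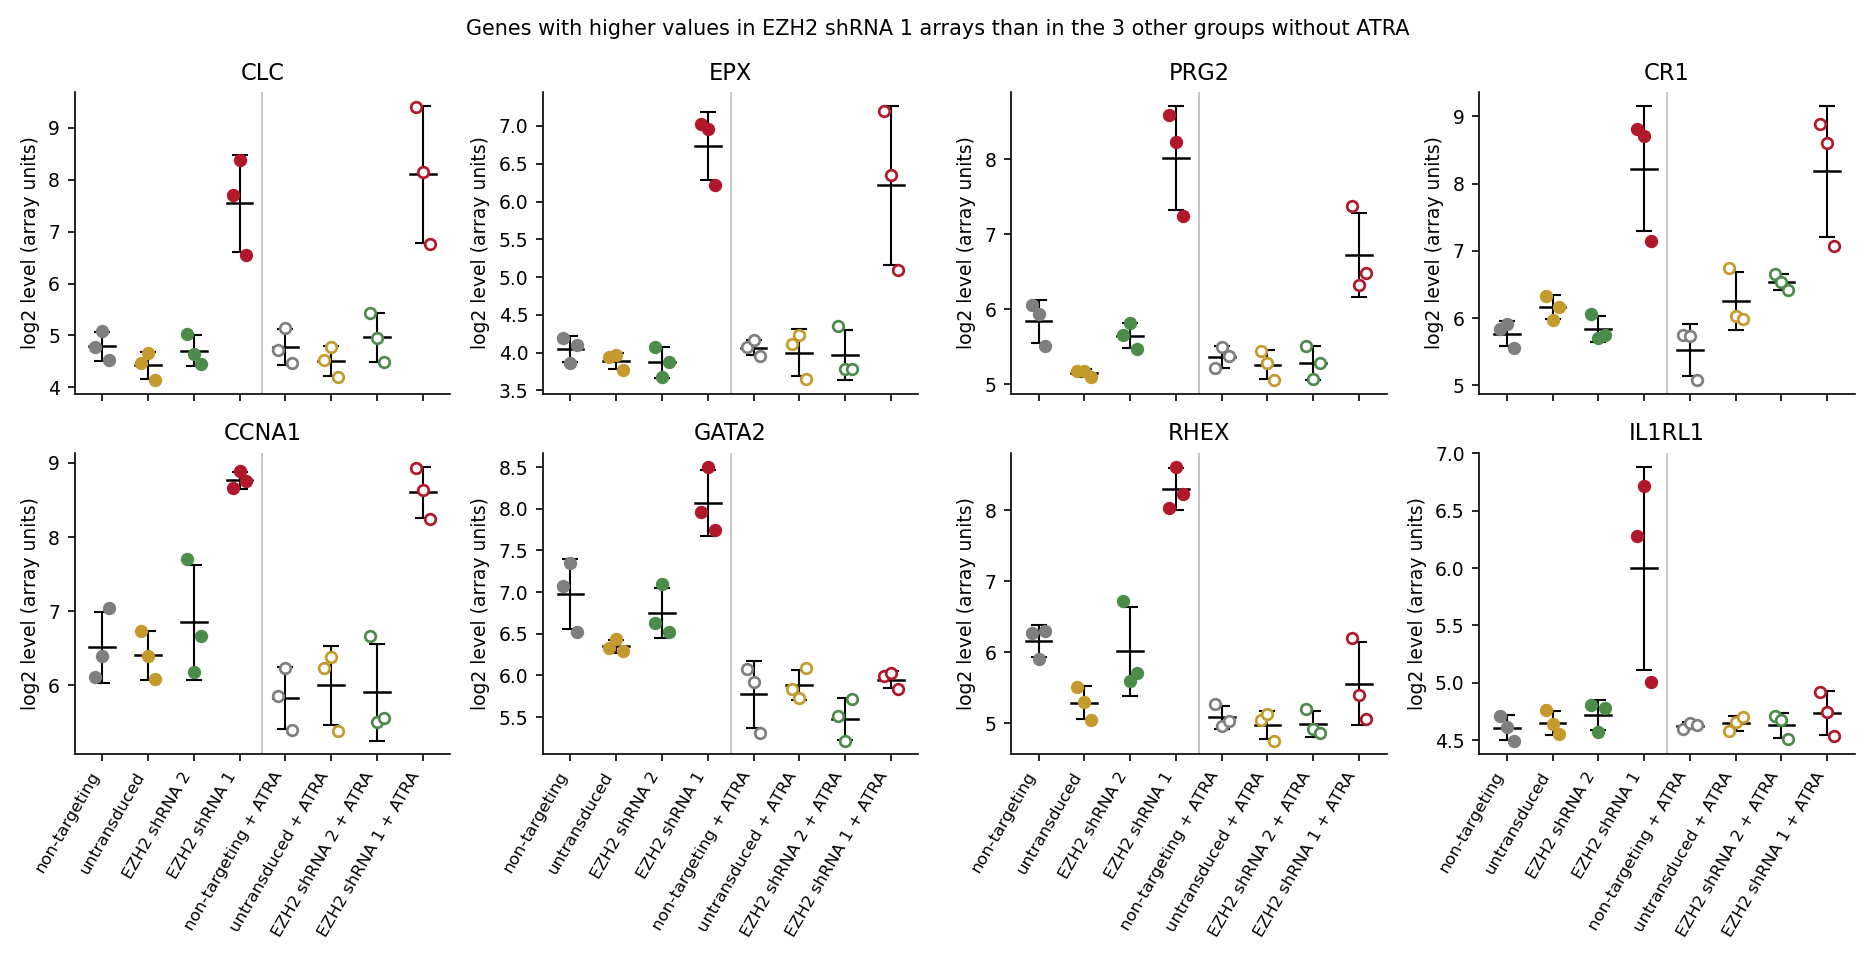
Log2 levels of 8 genes in the 8 groups of the knockdown experiment, without ATRA (filled, left of the line) and with ATRA (open, right). Each point is 1 array, with mean ± SD (n = 3). In each panel the 3 EZH2 shRNA 1 arrays without ATRA lie above all 9 other arrays without ATRA, and GATA2, RHEX and IL1RL1 lie near the control with ATRA.

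The non-targeting shRNA itself differed from untransduced cells in 1588 of the 7367 callable genes, 233 higher (3.16%) and 1355 lower (18.4%), over 3 times the number called for EZH2 shRNA 1 against it. Of the 447 called genes, 376 were within 1.3-fold of untransduced cells in the shRNA 1 arrays, as were 6374 of all callable genes (86.5%), so that nothing about the called genes in particular is read from this share. For 349 of the 447 the non-targeting shRNA lay at least 1.3-fold from untransduced cells on the side away from the shRNA 1 change, as it did for 2565 of all callable genes (34.8%), a count that uses the same control arrays as the calls. Only 16 of the 447 were called the same way against untransduced cells, and of the 62 called whichever array was left out, 9 were. TNFAIP6, a hyaluronan-binding protein induced in inflammation, had the largest called rise. Its level was 11.19, 10.42 and 10.00 with shRNA 1, 7.67, 7.45 and 9.24 with the control and 11.60, 10.28 and 10.21 in untransduced cells. Its change was 2.41 against the control (standard error 0.38, adjusted p = 0.000376) and -0.16 against untransduced cells. The shRNA 1 arrays thus sat with the untransduced arrays, and non-targeting replicate 3 lay between.

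SUCNR1, the succinate receptor, ANXA3, a phospholipid-binding annexin, STAP1, a signaling adaptor, CD109, a surface glycoprotein, SEMA3A, a secreted semaphorin, and ZNF845 showed the same order. SUCNR1 was 9.04, 9.61 and 9.04 with shRNA 1, 6.57, 6.66 and 8.52 with the control and 10.16, 8.99 and 9.71 in untransduced cells (1.98, adjusted p = 0.00307, which became 0.053 without non-targeting replicate 1). CD109 was called with the lowest adjusted p of the largest rises (1.60, standard error 0.17, adjusted p = 1.08e-06) and differed from untransduced cells by -0.21. The gap to the control was smaller without the 6 high-median arrays, at 0.96 for TNFAIP6 and 0.80 for SUCNR1, and CD109 alone of these 7 was still called (1.11, adjusted p = 0.0394). PTPRC, which encodes CD45, and IFNGR1, the interferon gamma receptor, are in the core of 62 and had the same order, with changes of 1.26 and 0.85 against the control and of 0.15 and -0.24 against untransduced cells. Both were chosen after their values were seen.

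Some large rises were also called against untransduced cells. HGF, hepatocyte growth factor, was 10.33, 10.47 and 9.53 with shRNA 1, 8.14, 7.90 and 8.54 with the control and 8.39, 8.59 and 8.41 in untransduced cells. Its changes were 1.92 (adjusted p = 0.00375) and 1.65 (adjusted p = 0.0315). CCL2, the monocyte chemoattractant, was 12.20, 10.69 and 10.86 against 9.93, 8.73 and 10.29 in the control and 10.15, 8.52 and 8.54 in untransduced cells (1.60 and 2.18, adjusted p = 0.0235 and 0.00427). The call of CCL2 against the control ended without non-targeting replicate 1 or 2 or without shRNA 1 replicate 1 (adjusted p = 0.0674 to 0.263). CLEC4D, a C-type lectin of myeloid cells, was 8.46, 8.84 and 7.32 against 5.94, 5.99 and 6.90 in the control (1.93, adjusted p = 0.00188), 1.61 higher than with shRNA 2 (adjusted p = 0.0328) and 1.34 higher than in untransduced cells (adjusted p = 0.083). CYTIP, an adaptor of cytohesin, rose by 1.95, and its difference from untransduced cells was 0.42 (adjusted p = 0.718). Of the remaining rises among the 15 largest, FCGR2A (1.57), ACP3 (1.44) and ANXA1 (1.43) differed from untransduced cells by at most 0.58, none of them called, and the calls of FCGR2A and ACP3 ended without non-targeting replicate 1, without replicate 2 and in other leave-one-out fits, as did those of ZNF845 and SEMA3A (adjusted p = 0.051 to 0.249).

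**Figure D4:**
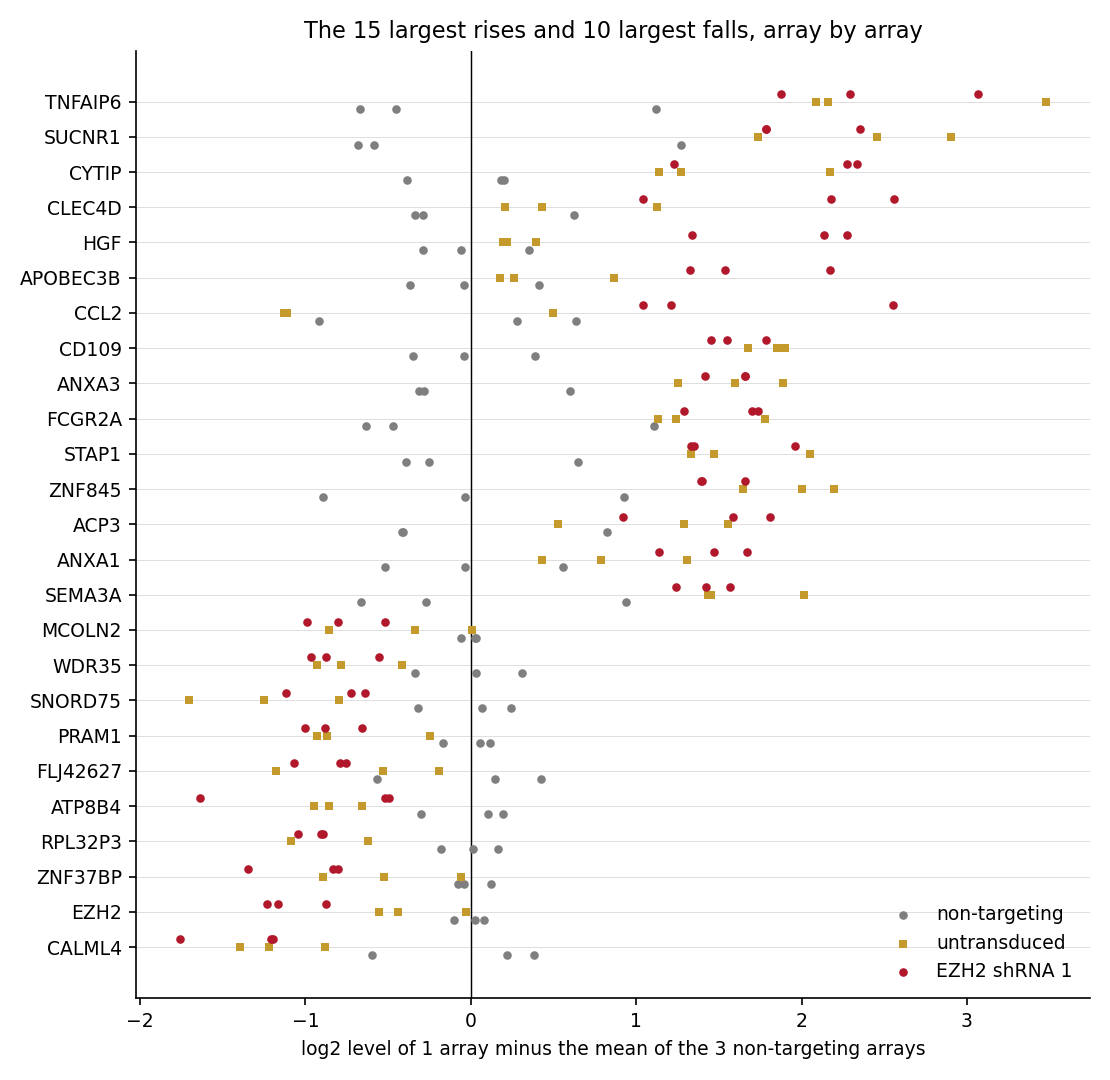
Log2 level of each array minus the mean of the 3 non-targeting arrays, for the 15 called genes with the largest rises and the 10 with the largest falls whose groups do not overlap. For TNFAIP6, SUCNR1, CD109 and ZNF845 the untransduced arrays (squares) lie with or beyond the shRNA 1 arrays (red), and for HGF and CCL2 they lie with or below the control (grey).

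Falls were fewer and smaller. CALML4, a calmodulin-like protein, was 6.51, 7.06 and 7.07 with shRNA 1 and 8.65, 8.49 and 7.67 with the control, the only called gene to fall further than EZH2 (-1.39, standard error 0.23, adjusted p = 0.000561). In untransduced cells it was 6.87, 7.05 and 7.39, so that the control was the high group. ZNF37BP (-0.99) and RPL32P3 (-0.95), both transcribed pseudogenes, were called whichever array was left out. Of the other falls, ATP8B4 (-0.88), FLJ42627 (-0.87), PRAM1 (-0.85), SNORD75 (-0.83), WDR35 (-0.80) and MCOLN2 (-0.77) lost the call in 3 or 4 of the 6 leave-one-out fits, always without non-targeting replicates 1 and 2. SNORD75 lay 0.42 above untransduced cells. Of the 10 largest falls, EZH2 alone was also called against untransduced cells.

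Metallothioneins, small cysteine-rich proteins that bind zinc and copper, are a family chosen after its values were seen. Of 10 measured genes 5 could be called, all 5 had a positive change, and MT1G, MT1F and MT2A were called. MT1G was 11.04, 10.48 and 11.40 with shRNA 1 and 9.92, 9.28 and 9.93 with the control (1.26, standard error 0.21, adjusted p = 0.000711). MT1F was 11.87, 11.46 and 12.16 against 11.27, 10.98 and 10.99 (0.75, adjusted p = 0.006) and MT2A 12.38, 11.97 and 12.85 against 11.69, 11.53 and 11.77 (0.74, adjusted p = 0.00135). The groups did not overlap for these 3, and replicate 2 was the lowest shRNA 1 array each time. MT1E (0.49, adjusted p = 0.0541) and MT1X (0.59, adjusted p = 0.105) did not pass. Against untransduced cells MT1F (1.36), MT1G (0.90) and MT1E (0.62, adjusted p = 0.0368) were called and MT2A was not (0.25). The genes are near-identical, and their probe sets may read each other.

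The MT2A promoter is shown for its metal response motifs. Capitals mark TGCACNC or TGCGCNC on either strand in the 250 bases upstream of the RefSeq start, chr16:56608334-56608583 on the plus strand of GRCh38.p14.
MT2A: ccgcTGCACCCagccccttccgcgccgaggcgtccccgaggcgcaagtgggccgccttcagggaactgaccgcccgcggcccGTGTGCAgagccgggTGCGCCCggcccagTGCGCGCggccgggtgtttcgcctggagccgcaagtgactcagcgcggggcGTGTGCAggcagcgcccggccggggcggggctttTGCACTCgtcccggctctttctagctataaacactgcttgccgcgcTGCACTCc
It holds 7 matches and the MT1X promoter 4, where 24.8% of all promoters of this length hold at least 1 and 1.58% hold 3 or more.

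Galectins and annexins, also chosen after their values were seen, had 3 called members each. LGALS12 (1.41), LGALS1 (1.02, adjusted p = 0.00663) and LGALS8 (0.97, adjusted p = 0.0376) were called of 4 callable galectins. ANXA3 (1.58), ANXA1 (1.43) and ANXA5 (0.45) were called of 8 callable annexins, and 7 of the 8 had a positive change. LGALS12 alone of these 6 was also called against untransduced cells.

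The lists of pathway genes are described by their counts, against 5.17% called higher and a median of 0.13 over all callable genes. That median was -0.01 without the 6 high-median arrays and -0.02 with the array median as a covariate. The share of positive changes over all callable genes is not given here. Counts of positive changes, in the families above and the lists below, are therefore descriptions only. Inflammatory response and NF-kB target genes had 6 of 29 called (20.7%), 25 of 29 with a positive change and a median of 0.50. TNFAIP6, CYTIP, BCL2A1 (1.35, adjusted p = 0.011) and CD44 (0.70, adjusted p = 0.0197) have the lowest adjusted p of the 6. BCL2A1, a survival protein of the BCL2 family, was 7.05, 6.88 and 6.22 with shRNA 1, 5.18, 5.18 and 5.74 with the control and 7.47, 6.35 and 6.07 in untransduced cells. The count ran from 2 without non-targeting replicate 1 or 2 to 11 without its replicate 3, and the median was 0.17 without the 6 high-median arrays. Against untransduced cells 1 member was called and the median was 0.09. Below the filter PTX3, a pentraxin of innate defense, was 7.79, 7.26 and 6.79 with shRNA 1 and 5.44, 4.88 and 5.57 with the control (1.98, adjusted p = 0.000164) and passed against untransduced cells too (1.21, adjusted p = 0.0449).

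Lysosome genes had 4 of 27 called (14.8%), NPC2 (0.92), NEU1 (0.88), LIPA (0.78) and CTSS (0.51), and all 27 changes were positive, with a median of 0.37. None was called against untransduced cells. The count was 0 without non-targeting replicate 1 or 2 or without shRNA 1 replicate 1 and 13 without non-targeting replicate 3, and the median was 0.04 without the 6 high-median arrays. Sterol and fatty acid synthesis had 2 of 20 called, EBP (1.04, adjusted p = 0.00705) and ELOVL6 (0.88, adjusted p = 0.0246). The count ran from 0 without non-targeting replicate 2 to 7 without its replicate 3, and the median of 0.46 was 0.49 without the high-median arrays and 0.19 against untransduced cells. Of the genes with ZNF symbols 15 of 167 were called (8.98%), with a median of 0.15 that was -0.04 without those arrays. The ZNF count ran from 0 without non-targeting replicate 1 to 53 without its replicate 3.

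Growth genes had few calls, and their number depended on the control arrays. None of 56 callable genes for cytosolic ribosomal proteins was called (median -0.01), nor any of 51 for DNA replication (median 0.06) or of 12 G1 cyclins and CDKs. Mitosis had 3 of 53 called, SKA1 (0.61), SGO2 (0.77) and CKAP2L (0.74), and 48 of 53 positive changes with a median of 0.24. Oxidative phosphorylation had 2 of 62, MYC targets and ribosome biogenesis 2 of 44, and glycolysis 1 of 19, the hexose transporter gene SLC2A3 (1.21). None of 13 p53 target genes was called. Without non-targeting replicate 3 the counts were 14 for mitosis, 13 for oxidative phosphorylation, 6 for ribosomal proteins, 4 for DNA replication and 6 for p53 targets, and each was 0 without either of non-targeting replicates 1 and 2. The BCL2 family had 3 of 10 called higher, BCL2A1, the death effector BAK1 (0.83) and MCL1 (0.44). It had 1 called lower, BCL2L11, which encodes the death activator BIM (-0.49, adjusted p = 0.0151). The number of called members was 0 without non-targeting replicate 1 or without shRNA 1 replicate 1, and 6 without non-targeting replicate 3. None of the family was called against untransduced cells. Small nucleolar RNA genes had a median of -0.23 over 111 callable genes and 1 call, SNORD75.

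In the other lists the calls were of 1 or 2 members each. The replication-dependent histone genes H4C4 (0.83, adjusted p = 0.00488) and H3C1 (0.75, adjusted p = 0.00488) were the 2 called of 35, of which 34 had a positive change. Both held in every leave-one-out fit, and histone genes have near-identical copies that their probes may share. H4C4 was 11.45, 11.45 and 11.96 with shRNA 1, 11.14, 10.76 and 10.44 with the control and 11.03, 10.98 and 10.66 in untransduced cells, so that its arrays lay above both controls. H4C4 changed by 1.26 without the 6 high-median arrays. It was not called when the fit used only the 6 arrays compared (adjusted p = 0.337, limma), and neither was any other gene. Among 14 immediate early and heat shock genes JUNB (0.73, adjusted p = 0.000882) held in every leave-one-out fit and EGR1 (0.97, adjusted p = 0.0205) in 2 of 6. Against untransduced cells JUNB changed by -0.18 and EGR1 by 0.47, and neither was called. Of 12 polyamine genes ODC1, ornithine decarboxylase, was called (0.72, adjusted p = 0.000164) and changed by -0.19 against untransduced cells.

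Interferon response genes had 1 of 15 called, SAMD9L (1.09, adjusted p = 0.0031, lost without non-targeting replicate 2 at 0.0523), and below the filter HERC5 (0.94) and IFIT3 (0.55) passed. Stem and progenitor genes had CD109 called of 14, with GATA2 passing below the filter, and a median of 0.03. Amino acid and unfolded protein response genes had 1 of 32 called, SLC3A2 (0.48). None of 7 callable genes for MHC class II and antigen presentation was called. The class II genes HLA-DRA and HLA-DRB1 and the gene CD74 had no probe set with 1 symbol and were not tested. Of 7 retinoic acid target genes PRAM1 fell and 5 of 7 changes were negative, with a median of -0.29. The calls of PRAM1, SLC3A2, SLC2A3, MCL1, BAK1, FCER1G and RNASE2 ended without either of non-targeting replicates 1 and 2 and in 1 to 3 further leave-one-out fits (adjusted p = 0.0516 to 0.327).

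Lists tied to Polycomb and to differentiation had few callable or called members. Of 73 measured HOX and developmental transcription factor genes, which are classic PRC2 targets, 6 could be called, and MEIS2 was (0.48, adjusted p = 0.0376, lost in 5 of 6 leave-one-out fits). Of 6 CDK inhibitor genes 1 could be called and was not. Myeloid maturation had 2 of 23 called, a median of 0.31 and 19 positive changes. This median was 0.07 without the 6 high-median arrays, 0.01 with the array median as a covariate and 0.06 against untransduced cells, and the count ran from 0 without non-targeting replicate 1 or 2 or shRNA 1 replicate 2 to 6 without non-targeting replicate 3. Its called members are FCGR2A and FCER1G (1.06, adjusted p = 0.0353). Primary granule genes had 1 of 10 called, RNASE2, an eosinophil and neutrophil ribonuclease (0.96, adjusted p = 0.0224). RNASE2 was 9.84, 9.77 and 10.58 with shRNA 1, 8.89, 8.79 and 9.64 with the control and 10.23, 9.78 and 9.77 in untransduced cells. The primary granule gene MPO, which marks HL-60 cells, was 12.67, 12.95 and 13.15 with shRNA 1 and 12.89, 12.86 and 12.92 with the control and was not called. CTSG (0.79, groups that did not overlap), ELANE (0.38), PRTN3 (-0.10), AZU1 (-0.48) and SPI1 (0.01), also markers of HL-60 cells, were not called either. Against untransduced cells ELANE (1.22) and PRTN3 (1.34) were called higher, as they were with the non-targeting shRNA (0.83 and 1.44). ELANE was also called higher than with shRNA 2 (1.35).

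Markers of other lineages had low mean levels over their lists. Apart from CLC, EPX and PRG2, none of them passed when the expression filter was dropped. Summed over their lists, mean levels were 4.86 to 4.95 in shRNA 1 arrays and 4.78 to 4.91 in control arrays for 15 monocyte and macrophage genes, 5.04 to 5.09 and 5.04 to 5.10 for 18 erythroid and megakaryocyte genes, and 4.96 to 5.08 and 4.96 to 4.99 for 23 lymphoid genes. Of each of these lists 1 gene was bright enough to be called, CD68, TFRC and CD4, and none was called. Of 14 measured genes that the study names, 11 could be called, EZH2 fell and GPR65, a proton-sensing receptor, rose (1.25, adjusted p = 0.0158). GPR65 was 7.91, 8.03 and 8.01 with shRNA 1, 6.33, 6.41 and 7.44 with the control and 9.39, 8.39 and 7.76 in untransduced cells, and the call ended without either of non-targeting replicates 1 and 2 or without shRNA 1 replicate 2 (adjusted p = 0.0524 to 0.142). ITGAM, which encodes CD11b, changed by 0.34 (adjusted p = 0.572) and CD36 by 0.56 (adjusted p = 0.482), with overlapping arrays. LEF1 changed by -0.27 and MYC by -0.16, and neither passed.

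The same hairpins were compared in cells given 0.1 µM ATRA, on 6 arrays that this comparison does not use. There 252 genes were called higher (3.42%) and 122 lower (1.66%), and without the filter 391 passed as higher (2.12%). The lists shared 118 genes in the same direction, which is 26.4% of those called without ATRA and 31.6% of those called with it, and no gene was called in opposite directions. Of the 447 genes, 412 had the same sign with ATRA, and of the core of 62, 37 were called again. Both comparisons use cells with the same non-targeting hairpin, and the share with the same sign over all callable genes is not given here. Nothing about the called genes in particular is therefore read from the count of signs. EZH2 changed by -0.96 with ATRA.

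CLC was 9.41, 8.15 and 6.77 with EZH2 shRNA 1 and ATRA and 4.72, 5.15 and 4.47 with the non-targeting shRNA and ATRA (3.33, adjusted p = 1e-05). EPX was 7.19, 6.35 and 5.10 against 4.08, 4.17 and 3.96 (2.14) and PRG2 7.37, 6.32 and 6.48 against 5.21, 5.50 and 5.37 (1.36, adjusted p = 0.000457). CR1 (2.66) and CCNA1 (2.77) were also higher in all 3 shRNA 1 arrays, and both passed. The eosinophil genes, CR1 and CCNA1 were thus higher with EZH2 shRNA 1 than with the non-targeting shRNA in both sets of arrays. GATA2 was 5.99, 6.02 and 5.84 against 6.08, 5.92 and 5.31 with ATRA (0.18, adjusted p = 0.73), RHEX changed by 0.47 (adjusted p = 0.349) and IL1RL1 by 0.11 (adjusted p = 0.871), and none of these 3 passed. Of the 23 genes that passed against 3 groups, 12 passed with ATRA and all 23 had the same sign, a count with the same limit.

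The difference between the effect with and without ATRA was itself tested. RGS16, a regulator of G protein signaling, was the only gene called (0.0136%), with a change of 0.50 without ATRA (adjusted p = 0.183) and of -1.04 with it (adjusted p = 0.00309). The difference was -1.54 (standard error 0.29, adjusted p = 0.0309). Without the filter 10 genes passed, and PTGES, a prostaglandin E synthase, had the largest difference (3.35, adjusted p = 5.6e-05). It was 5.63, 5.62 and 5.49 with shRNA 1 and 5.68, 5.78 and 5.76 with the control without ATRA, and 9.54, 9.59 and 10.08 against 6.76, 6.72 and 6.17 with ATRA. RHEX (-1.66, adjusted p = 0.0597), IL1RL1 (-1.28, adjusted p = 0.18) and GATA2 (-0.91, adjusted p = 0.353) did not pass this test, so their effects were not shown to differ with ATRA. The metallothioneins MT1F, MT1G and MT2A were called in both sets of arrays (0.88, 1.15 and 0.86 with ATRA). ITGAM (1.60) and CD36 (1.63) passed with ATRA, and sterol synthesis had 7 of 20 called there with a median of 0.83.

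**Figure D5:**
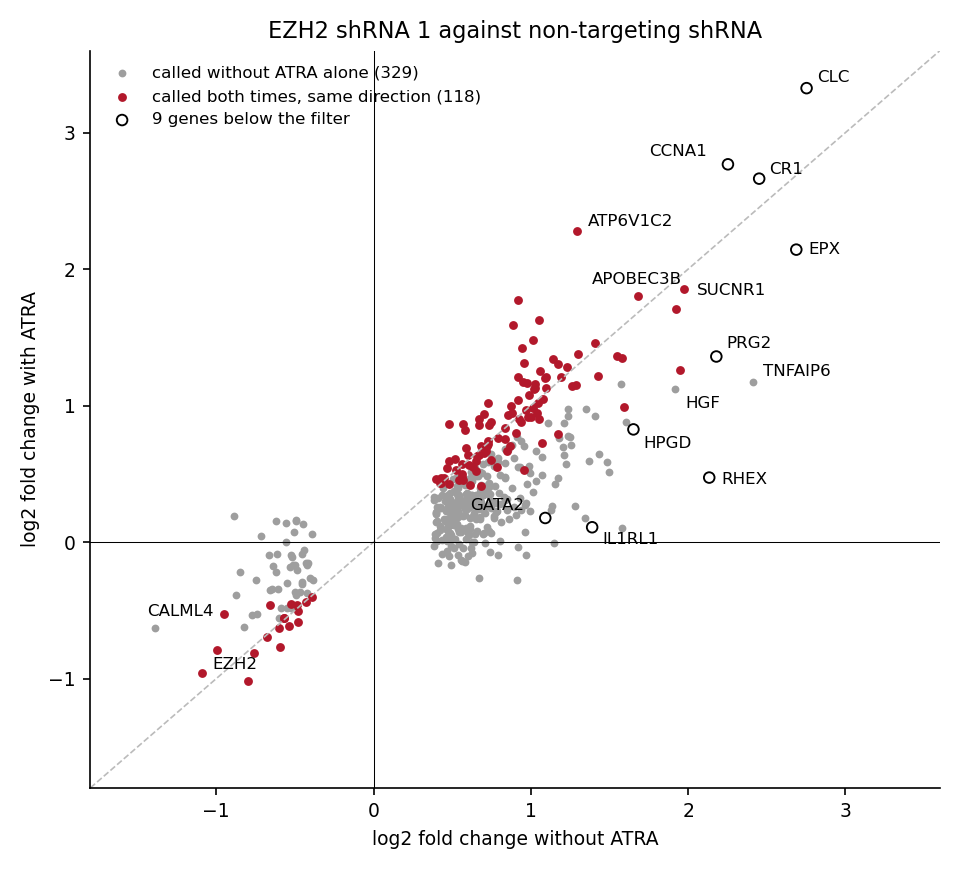
Log2 fold change of EZH2 shRNA 1 over non-targeting shRNA without ATRA (horizontal axis) and with ATRA (vertical axis) for the 447 genes called without ATRA and 9 dim genes (open circles). CLC, EPX, PRG2, CR1 and CCNA1 lie far from 0 on both axes, and RHEX, GATA2 and IL1RL1 lie near 0 on the vertical axis.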

How the data were processed

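RNA of HL-60 cells was hybridised to 42 arrays, 3 per group. The authors normalized them with GC-RMA and removed batch effects in Partek, with versions and batches not given in the sources used here, and deposited 1 table of log2 values. That the deposited values are log2 was taken from their range (3.18 to 14.5). The fits do not account for the removed batches, and precision is limited by having 3 arrays a group.

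Of 33297 probe sets, 19460 carry 1 symbol, and the brightest of these stood for each of 18417 genes. A limma model (version 3.58.1, under R 4.3.3) of the 14 group means used all 42 arrays, with residual degrees of freedom of 28 and a prior of 3.37. Benjamini-Hochberg adjustment ran over all genes. A call needed an adjusted p of at most 0.05, a fold of at least 1.3 and a mean in the top 40% (6.88 or more). Scripts were tested on simulated data. Values of single arrays were compared by exact permutation tests. Promoters are from RefSeq on GRCh38.p14, and those of EPX, PRG2, MT1E, MT1F and MT1G were not in the promoter table used.

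Groups come from the treatment labels, and arrays labelled wild type were taken as untransduced. The genes named are EZH2 and the PRC2 list, the 15 largest rises and 10 largest falls of called genes with no overlap between the groups, up to 4 called members of a list (all where 5 or fewer), and the genes the paper names. Not all are reported here, and others were chosen after their values were seen. The members and lists were chosen with earlier results of these data known. Alternatives changed the fold, the filter, the scaling, the block, the control, the test, the probe sets, the variance model and the arrays fitted, and left out each array. Fits that dropped the expression filter together with another change were added after seeing the data. The hairpin sequences are not reported here.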

Additional observations from a re-analysis of the deposited data

Results flagged for a closer look

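Several genes changed with EZH2 shRNA 1 and differed from EZH2 shRNA 2 by a test of that difference (limma, adjusted p at most 0.05). The log2 differences, shRNA 1 minus shRNA 2, were largest for the eosinophil genes EPX (2.86), CLC (2.84) and PRG2 (2.37) and for CR1 (2.38), RHEX (2.28), APOBEC3B (2.19) and CCNA1 (1.92). They were 1.61 for CLEC4D, 1.32 for GATA2, 1.30 for EDIL3, 1.28 for IL1RL1, 1.27 for HPGD, 1.12 for ATP6V1C2, 1.09 for LGALS12 and 1.05 for TMEM154. The metallothionein genes MT1F, MT2A and MT1DP differed by 0.92, 0.66 and 0.65. BHLHE41 (0.88), CLEC4E (0.84), ARHGAP5 (0.82), ADGRE4P (0.82), PLCL2 (0.80), EIF4E3 (0.70), APOL6 (0.66), STK17B (0.66), PBK (0.62), SIRT1 (0.55), MAN2A1 (0.53), RAB7B (0.45) and MAPK8 (0.38) were higher by less. MAP4K1 (-1.12), ATP8B2 (-0.93), HBS1L (-0.56) and GUSBP5 (-0.52) were lower with shRNA 1 than with shRNA 2. Differences were read only for genes that had also passed against the non-targeting shRNA.

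The effect of EZH2 shRNA 1 differed between cells with and without ATRA for 10 genes when the expression filter was dropped, by the test of that difference. The effect with ATRA minus that without was 3.35 for PTGES, 2.43 for LILRA5, 1.99 for FBP1, 1.96 for ITGA6, 1.94 for HPD, 1.44 for SCUBE1, 0.98 for PLB1 and 0.55 for CYB5R2. It was -0.66 for LYPD6B and -1.54 for RGS16, of which RGS16 alone of the 10 lies in the top 40% of genes by level.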

How the results depend on the processing

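The count of 447 genes called against the non-targeting shRNA was 111 in a fit of the 24 knockdown arrays, 0 in a fit of the 6 arrays compared (by limma, with 1372 genes of sufficient level and fold at an unadjusted p under 0.05 in the fit of 42 arrays), 218 with the array median as a covariate, 14 without the 6 knockdown arrays of highest median, 70 at a fold of at least 2, 2212 with array weights, 60 with untransduced cells as the control, 72 with both controls together and 0 by the methods' t-test after Benjamini-Hochberg (444 unadjusted). It ran from 88 without non-targeting replicate 1 to 1898 without non-targeting replicate 3. With the replicate block it was 363, 307 higher and 56 lower. Same-numbered arrays of both groups deviated together with correlations of 0.49, -0.06 and 0.54, and shRNA 1 replicate 2 correlated best with non-targeting replicate 3 (0.13), so the numbers were not taken as pairing the samples. EZH2 fell in every fit and lost the call in a fit of the 6 arrays (-1.09, adjusted p = 0.109), without the high-median arrays (-1.04, adjusted p = 0.0537) and by the methods' t-test after Benjamini-Hochberg (-1.09, adjusted p = 0.452), and ran from -1.20 to -1.02 in leave-one-out fits. With ATRA the count of 374 was 135 with 24 arrays, 193 with the arrays compared, 246 with centring, 83 at a fold of at least 2, 669 with array weights, 0 and 765 by the methods' t-test with and without adjustment, and 148 to 494 in leave-one-out fits. Between hairpins the count of 37 was 9 with 24 arrays, 0 with the arrays compared, 18 with centring, 132 with the covariate, 19 without the high-median arrays, 73 without the expression filter, 57 with p adjusted over the top 40% alone, 9 at a fold of at least 2, 150 with array weights, 0 and 159 by the methods' t-test, and 15 to 48 in leave-one-out fits. The cause of these differences was not tested. The methods' t-test named here is the unpaired t-test of the study's general statistics, run on the arrays compared. The study drew its array gene lists from false discovery rate testing over all its conditions, which these t-tests do not repeat.

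Of the 60 genes called under the naming rule, 18 turned sign with untransduced cells as the control. They include TNFAIP6 (-0.16), SUCNR1 (-0.39), CD109 (-0.21), ANXA3 (-0.0012), STAP1 (-0.072), ZNF845 (-0.46), SEMA3A (-0.22), SNORD75 (0.42) and MXD1 (-0.52). The others are RRN3 (-0.27), ODC1 (-0.19), SDHD (-0.067), ELOVL6 (-0.12), NEU1 (-0.0016), LIPA (-0.11), JUNB (-0.18), GPR65 (-0.54) and ZNF264 (-0.057). FCER2 was not called against the non-targeting shRNA (0.46) and was called lower against untransduced cells (-2.89). Further genes outside these 60, such as IFNGR1 and PRTN3, also turned sign and are not in this count. Of 60 genes called under the naming rule, 60 were still called with centring, 59 with quantile normalization, 54 with the replicate block, 26 with the covariate, 23 with 24 arrays, 12 with both controls, 5 with untransduced cells as the control, 3 without the high-median arrays and 0 with the 6 arrays. Of 840 counts of list members under alternatives, 507 were within 1.5 times the main count.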
